A study of Mus musculus with 6 samples.

Results

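The SLAM family receptors and their adaptor SAP were followed as 10 genes: Slamf1, Cd48, Ly9, Cd244a, Cd84, Slamf6, Slamf7, Slamf8, Slamf9 and Sh2d1a, which encodes SAP. They are 10 of the 19938 genes that could be tested, and all 10 were measured. The genes were listed by family, and a gene with several probe sets was to be read by the brightest one. Probe sets were thus to be chosen by their mean level on the 6 arrays, but each of the 10 genes had exactly 1 probe set naming it alone, and no measured value had to decide. The list was drawn up with the comparison below already known, so the members' differences are given with their errors and as a description, without p-values, and nothing rests on how many of them passed.

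Total RNA came from mouse pre-B cells of strain 129P2/OlaHsd transformed with BCR-ABL1, the fusion kinase of Philadelphia chromosome-positive acute lymphoblastic leukaemia, and was hybridised to Affymetrix arrays. In one group of 3 arrays the cells had received the PMIP-CRE-ERT2 vector, whose Cre recombinase is held inactive until tamoxifen is given, and in the other group of 3 they had received PMIP-ERT2, which carries the hormone-binding domain without Cre. All 6 samples shared the genotype Ptpn6 +/fl, that is 1 floxed and 1 unfloxed allele of the gene for the tyrosine phosphatase SHP-1, together with puromycin resistance and 2 days of 4OH-Tamoxifen at 0.5 micromolar. The vector was therefore the only labelled difference, and whether the 3 samples of a group were separate cultures or came from 1 transformed line is not stated in the labels. P-values below therefore cover the spread between these samples alone, and that spread may be technical.

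SLAM receptors are surface proteins of the immunoglobulin superfamily on blood cells. Most of them bind a copy of themselves on a neighbouring cell, while CD244 (2B4) binds CD48, and the tails of 6 of them carry a tyrosine-based switch motif. When phosphorylated, that motif can bind SAP in most of these receptors. SAP is a small adaptor that brings in the kinase Fyn. Where SAP is scarce, the motif can bind phosphatases such as SHP-1, SHP-2 and SHIP. CD48 is anchored by a lipid and has no tail, and SLAMF8 and SLAMF9 have short tails without the motif. The SLAM gene cluster is known to differ in sequence between mouse strains, and how well the probe sets read 129P2/OlaHsd transcripts was not tested.

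Median log2 expression over all probe sets lay between 7.90 and 7.98 on the 6 arrays, and 3 arrays a group limit the precision of every value. Across all genes, 4.58% passed limma at a Benjamini-Hochberg adjusted p under 0.05, with 2.3% higher and 2.28% lower in CRE-ERT2 (459 and 455 genes, against 543 and 349 after a further quantile normalization, 587 and 957 when limma used a trended, robust variance, and 540 and 720 without the dimmest genes), and the median log2 difference was -0.03. Ptpn6 had log2 expression of 11.36, 11.25 and 11.20 on the CRE-ERT2 arrays, against 11.25, 11.39 and 11.39 on the ERT2 arrays. The 2 groups of values overlapped, and the difference of -0.07 (SE 0.08) did not pass (limma adjusted p = 0.759). By a two-sided exact permutation test p was 0.3, and the smallest value this design allows is 0.1. Whether the Ptpn6 probe set lies in the floxed part is not known here, so its level does not check the labels.

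Slamf7 and Cd244a were lower in the CRE-ERT2 arrays, by 2.68-fold and 2.06-fold, and the other 8 members did not pass. Both genes lie in the SLAM cluster on chromosome 1 with a single measured gene, Ly9, between them, and Ly9 itself had nearly equal levels in both groups. The promoters of these 2 genes are shown because they carry the changes, and that of Cd84 is shown as a member of the same cluster whose level hardly differed. Each sequence is from RefSeq on mouse build GRCm38.p6, runs 5′ to 3′ along the gene's own strand and covers 250 bases before to 50 after the annotated start. Slamf7 lies on the minus strand at chr1:171648950-171649249. Cd244a lies on the plus strand at chr1:171558943-171559242, and Cd84 on the plus strand at chr1:171839447-171839746.
Slamf7: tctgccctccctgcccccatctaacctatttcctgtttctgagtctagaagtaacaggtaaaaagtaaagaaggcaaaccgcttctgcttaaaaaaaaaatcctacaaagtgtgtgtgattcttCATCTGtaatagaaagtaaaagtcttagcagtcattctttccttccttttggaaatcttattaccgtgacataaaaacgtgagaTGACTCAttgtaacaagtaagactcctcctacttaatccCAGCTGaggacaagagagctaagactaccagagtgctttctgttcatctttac
Cd244a: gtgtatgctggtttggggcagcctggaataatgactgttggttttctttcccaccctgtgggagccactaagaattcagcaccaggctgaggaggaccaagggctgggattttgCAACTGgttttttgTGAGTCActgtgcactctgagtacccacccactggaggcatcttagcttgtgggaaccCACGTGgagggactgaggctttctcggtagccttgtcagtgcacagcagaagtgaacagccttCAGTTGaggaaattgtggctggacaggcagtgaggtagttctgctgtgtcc
Cd84: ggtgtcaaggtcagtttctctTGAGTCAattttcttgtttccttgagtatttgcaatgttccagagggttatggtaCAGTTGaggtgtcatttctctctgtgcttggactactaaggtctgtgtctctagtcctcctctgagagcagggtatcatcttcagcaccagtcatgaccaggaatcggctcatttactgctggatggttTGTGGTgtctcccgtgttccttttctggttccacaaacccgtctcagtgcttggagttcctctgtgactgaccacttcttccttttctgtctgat

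The capitals mark matches on either strand to 4 short motifs, chosen after the values were seen: CANNTG (the E-box), TGANTCA (the AP-1 motif), TTCNNNGAA (the STAT motif) and TGTGGT (the RUNX motif). Promoters of 8 members were in the RefSeq table, and those of Ly9 and Sh2d1a are not shown. The AP-1 motif was present in 4 of the 8, those of Slamf7, Cd244a, Cd84 and Slamf8, against 7.81% of 32851 promoters of the same length. Of these 4 genes Slamf7 and Cd244a were lower, and Cd84 and Slamf8 hardly differed. The motif in the RefSeq sequences therefore did not separate these genes. Whether the mouse strain of these cells carries the same matches to any of the 4 motifs was not tested. An E-box was present in 8 of 8 member promoters, against 72.3% of all promoters. The RUNX motif was present in 2 of 8, those of Cd48 and Cd84 (16.8% of all), and the STAT motif in 0 of 8 (8.3% of all). Between different motifs, 1 pair of matches overlapped among the 8 promoters.

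Slamf7, also called CRACC or CS1, is a receptor that binds itself and is known from natural killer cells and plasma cells. Its log2 expression was 6.89, 6.82 and 6.67 on the CRE-ERT2 arrays, against 8.24, 8.40 and 8.00 on the ERT2 arrays. Every CRE-ERT2 value lay below every ERT2 value, with a gap of 1.11 between the highest CRE-ERT2 array and the lowest ERT2 array. The means were 6.79 ± 0.11 in CRE-ERT2 and 8.21 ± 0.20 in ERT2 (SD, n = 3 each). The fitted difference was -1.42 (SE 0.10; 95% confidence interval -1.64 to -1.20), which leaves 0.373 of the ERT2 level (0.321 to 0.435). Among all 19938 genes this was the difference of rank 6 from the lowest. On the CRE-ERT2 arrays the gene lay below 7.37, the mean level under which a share of 0.333 of all genes fall, and detection calls were not used here, so a level that low may understate the fold.

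Cd244a encodes the receptor 2B4, which binds CD48 and can either activate or restrain natural killer and T cells. It had log2 expression of 8.33, 8.14 and 8.37 on the CRE-ERT2 arrays, against 9.26, 9.51 and 9.20 on the ERT2 arrays. Again the groups did not overlap, and the gap between them was 0.823. The means were 8.28 ± 0.13 in CRE-ERT2 and 9.32 ± 0.17 in ERT2 (SD, n = 3 each). The difference was -1.04 (SE 0.10) with a 95% interval from -1.25 to -0.84, a ratio of 0.485 (0.420 to 0.560). Cd244a held rank 16 from the lowest among all genes. In bulk RNA, fewer cells that express a gene and less RNA per cell cannot be told apart, and this holds for both genes.

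Cd48, the ligand that CD244 binds, had log2 expression of 11.15, 11.04 and 11.00 on the CRE-ERT2 arrays, against 11.06, 11.04 and 10.98 on the ERT2 arrays, and the groups overlapped, with CRE-ERT2 replicate 1 above every ERT2 array and ERT2 replicate 3 below every CRE-ERT2 array. The difference was 0.04 (SE 0.07), and its 95% interval from -0.12 to 0.20 is a ratio of 0.921 to 1.15. Cd2, a receptor that also binds CD48 in mice, averaged 8.93 ± 0.19 in CRE-ERT2 and 8.94 ± 0.12 in ERT2 (SD, n = 3 each), a difference of -0.02 (SE 0.10; limma adjusted p = 0.971).

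**Figure D1:**
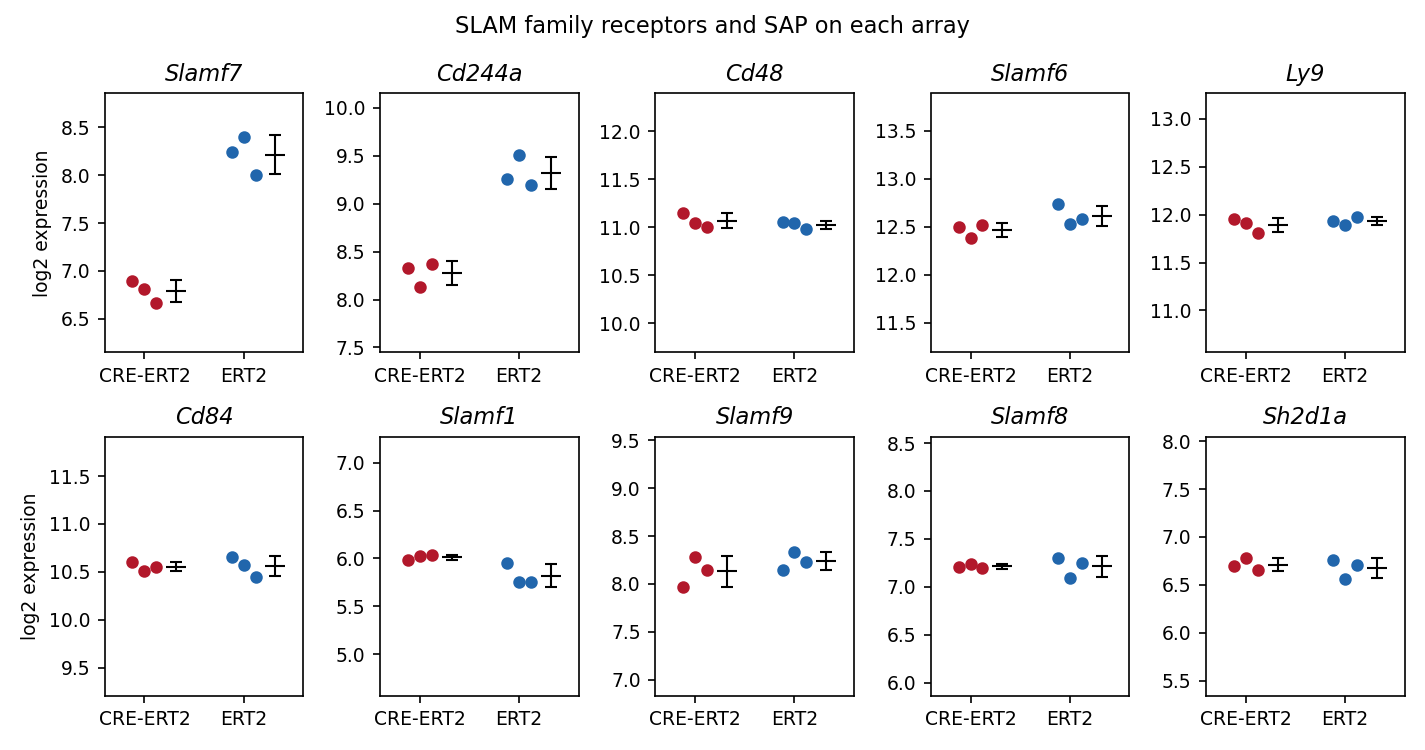
Log2 expression (y axis) of the 10 members on each array, with CRE-ERT2 (red) left of ERT2 (blue). Each point is 1 array, the bar beside each set of points is the mean ± SD (n = 3), and every panel spans the same number of log2 units. The groups stand clearly apart for Slamf7 (gap 1.11) and Cd244a (gap 0.823), while the other panels show levels within 0.19 of each other on average.

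The other receptors with the switch motif bind themselves, and none of the 4 passed. Ly9 (CD229) had log2 expression of 11.96, 11.91 and 11.81 in CRE-ERT2, against 11.94, 11.90 and 11.98 in ERT2, a difference of -0.04 (95% interval from -0.20 to 0.12). Cd84 had 10.61, 10.51 and 10.55 in CRE-ERT2, against 10.66, 10.57 and 10.45 in ERT2, a difference of -0.01 (-0.17 to 0.16). For both genes the groups overlapped, and the intervals leave no room for a change as large as that of Slamf7 or Cd244a.

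Slamf6 (Ly108), a receptor known from contacts between T cells and B cells, had log2 expression of 12.50, 12.39 and 12.52 on the CRE-ERT2 arrays, against 12.73, 12.52 and 12.58 on the ERT2 arrays. These groups did not overlap, but the gap was only 0.003, and the difference of -0.14 (SE 0.08) had a 95% interval from -0.32 to 0.03.

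Slamf1 (CD150), which in mice is used together with CD48 to recognise blood stem cells, was the member with the largest positive difference. Its log2 expression was 5.98, 6.03 and 6.03 on the CRE-ERT2 arrays, against 5.95, 5.76 and 5.75 on the ERT2 arrays. The groups were separated by a gap of 0.028, and the difference was 0.19 (SE 0.08; 95% interval from 0.02 to 0.36), a ratio of 1.14. It did not pass once adjusted over all genes.

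Slamf8 and Slamf9, the members with short tails, and Sh2d1a did not differ beyond their spread. Slamf9 had log2 expression of 7.96, 8.28 and 8.15 in CRE-ERT2, against 8.15, 8.33 and 8.23 in ERT2, a difference of -0.11 (95% interval from -0.30 to 0.09). Slamf8, which is known from macrophages, had 7.20, 7.24 and 7.19 in CRE-ERT2, against 7.30, 7.09 and 7.25 in ERT2, a difference of -0.0027 (from -0.17 to 0.16). Its ERT2 arrays enclosed all 3 CRE-ERT2 arrays.

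Sh2d1a lies on chromosome X, apart from the receptors, and in humans its loss causes X-linked lymphoproliferative disease. It had log2 expression of 6.70, 6.78 and 6.65 in CRE-ERT2, against 6.76, 6.56 and 6.71 in ERT2. The groups overlapped, and the difference was 0.04 (SE 0.08; 95% interval from -0.13 to 0.20). Sh2d1a, Slamf1 and Slamf8 were the 3 members whose mean over the 6 arrays lay below 7.37. An interval around 0 for Sh2d1a or Slamf8 therefore does not show that a transcript present at a low level was stable. The interval of Slamf1, from 0.02 to 0.36, excluded 0 and was read at the same low level.

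Counted over the family, 2 of 10 members passed, both of them lower in CRE-ERT2, against 4.58% of all genes. The groups did not overlap for 4 of 10 members, against 22.5% of all genes. Because the list was drawn up with this comparison known, these counts are a description. They do not show that the family changed more often than other genes. The median difference of the 10 members was -0.02, beside -0.03 over all genes, and for the 8 members other than Slamf7 and Cd244a it was -0.0044, with differences from -0.14 to 0.19. The family therefore held 2 large differences in 1 direction and 8 small ones on both sides of 0.

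**Figure D2:**
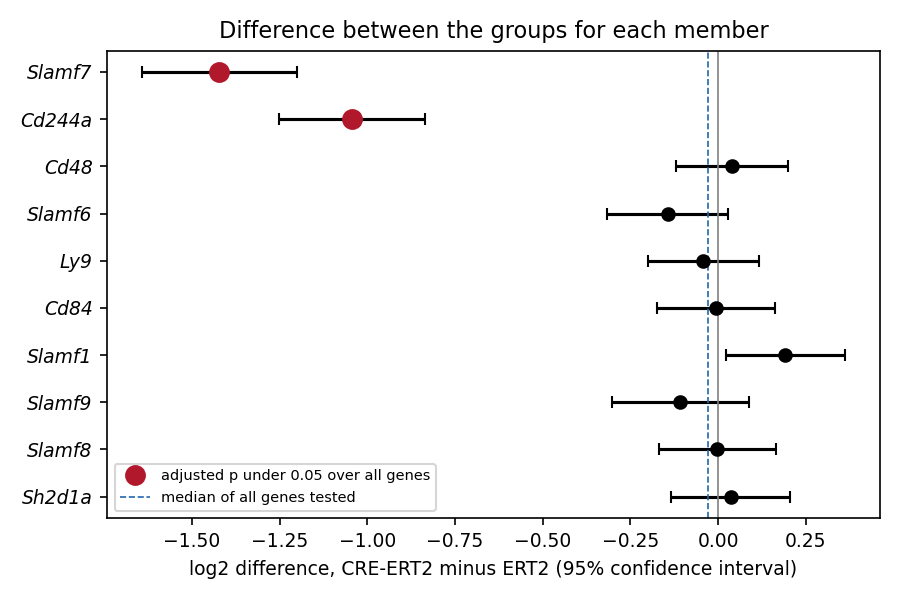
Log2 difference, CRE-ERT2 minus ERT2 (x axis), for each member, with its 95% confidence interval from limma. Slamf7 (-1.42) and Cd244a (-1.04), in red, lie past the threshold over all genes, and the other 8 members lie between -0.14 and 0.19, around the dashed line at the median of all genes (-0.03).

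Of the 10 members 9 lie on chromosome 1. In the order of the RefSeq gene table, Cd244a, Ly9, Slamf7, Cd48, Slamf1, Cd84 and Slamf6 follow each other with no other tested gene between them, and Slamf9 and Slamf8 lie further along. The genes beside the family, up to 5 tested genes on either side of each member, asked whether the neighbourhood moved as well. Of 34 such genes 2 passed, both lower in CRE-ERT2, against 2.28% of all genes. The median of the 34 was -0.03, beside -0.03 over all genes.

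Around the 2 members that were lower, differences changed from gene to gene. Itln1, which encodes a lectin and stands next to Cd244a on its outer side, differed by 0.11 (95% interval from -0.09 to 0.31). Ly9, next to both, differed by -0.04, and Cd48, on the other side of Slamf7, by 0.04. No gene beside the cluster within 5 places of Cd244a or Slamf7 passed. The 95% intervals of Alyref2 and Arhgap30, 2 and 5 places from Cd244a, did exclude 0, in opposite directions. Alyref2 differed by -0.23 (from -0.41 to -0.06) and Arhgap30 by 0.18 (from 0.02 to 0.34). The 2 neighbours that passed, Fcrl6 and Dusp23, follow Slamf8 in that order, 24 and 25 places from Slamf7.

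Fcrl6, a member of the Fc receptor-like family of surface proteins, had log2 expression of 11.15, 11.12 and 11.25 in CRE-ERT2, against 11.84, 11.93 and 11.85 in ERT2. The groups did not overlap, and the difference was -0.70 (SE 0.07), a fall of 1.62-fold (limma adjusted p = 9.35e-05). Dusp23, a dual-specificity phosphatase gene, had 9.08, 9.03 and 8.89 in CRE-ERT2, against 9.24, 9.40 and 9.35 in ERT2. Its difference was -0.33 (SE 0.08; limma adjusted p = 0.0327), and the call was lost in 4 of the 6 fits that left out 1 array, with adjusted p of 0.0877 and 0.0636 when ERT2 replicate 2 or 3 was removed, and of 0.0808 and 0.182 when CRE-ERT2 replicate 2 or 3 was removed. It was also lost after a further quantile normalization (0.0518) and when every probe set was tested (0.171). Slamf8, which stands beside Fcrl6, differed by -0.0027.

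**Figure D3:**
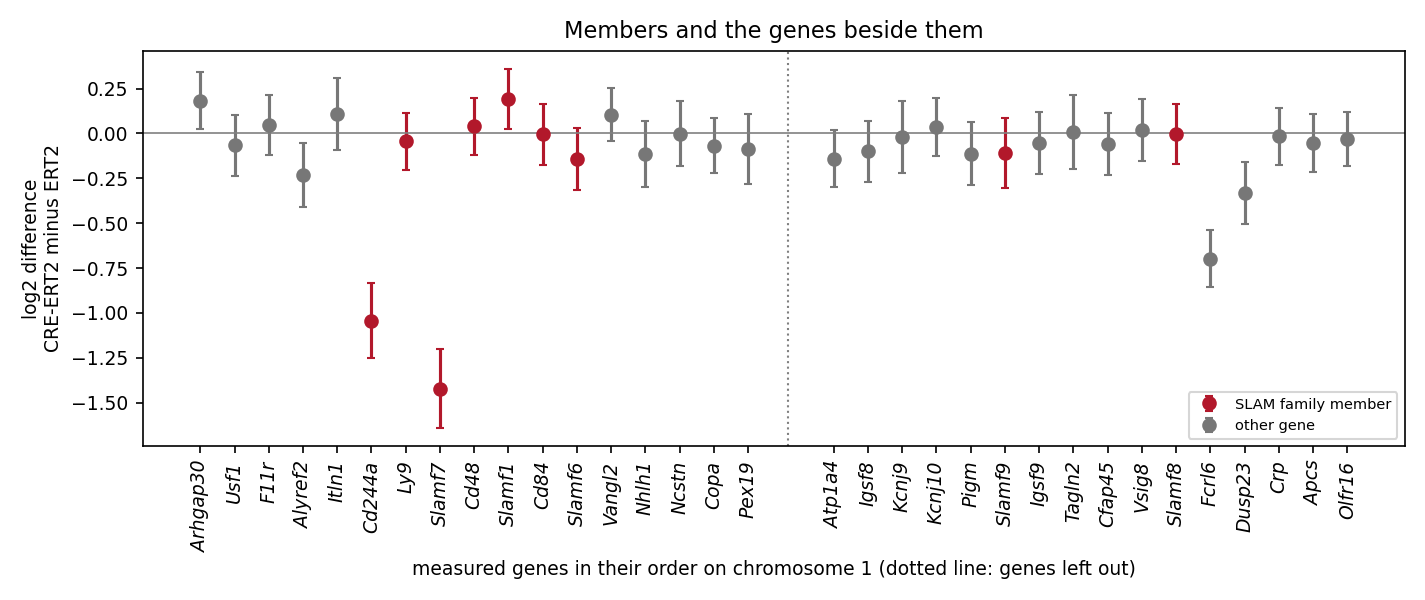
Log2 difference, CRE-ERT2 minus ERT2, with 95% confidence intervals (y axis), for the members on chromosome 1 (red) and the genes beside them (grey), in their order along the chromosome (x axis, not to scale). Cd244a and Slamf7 stand low on either side of Ly9, and Fcrl6 (-0.70) and Dusp23 (-0.33) are the other genes that passed.

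The proteins that act with SLAM receptors were compared next, from a list of 31 names of which 30 were tested. Of the 30, 2 rose, 0 fell and 28 did not pass, against 2.3% of all genes that were higher, and the median difference was -0.04. An unadjusted limma p under 0.05 was found for 9 of 30, against 3260 of 19938 genes. The groups did not overlap for 13 of 30, against 22.5% of all genes. Lat2, an adaptor of B cells and mast cells that is related to LAT, had log2 expression of 8.28, 8.16 and 8.46 in CRE-ERT2, against 7.69, 7.98 and 7.83 in ERT2. It rose by 1.38-fold (log2 difference 0.47, SE 0.10; limma adjusted p = 0.0144). Dok2, an adaptor that recruits the Ras inhibitor RasGAP, had 9.16, 9.10 and 8.97 in CRE-ERT2, against 8.77, 8.65 and 8.81 in ERT2, and rose by 1.26-fold (0.33, SE 0.08; adjusted p = 0.0323).

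Neither call was steady. With ERT2 replicate 1 removed, the adjusted p of Lat2 was 0.0876, and with CRE-ERT2 replicate 1 or 3 removed it was 0.0519 or 0.104. Dok2 passed in only 1 of the 6 fits that left out an array, the one without ERT2 replicate 3. When every probe set of the table was tested, Lat2 (0.159) and Dok2 (0.172) did not pass.

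The adaptors and kinases nearest to the receptors did not pass. Fyn, the kinase that SAP brings to the receptor, differed by -0.17 (95% interval from -0.33 to -0.01; limma adjusted p = 0.272). Prkcq, the protein kinase C form that acts with SAP and Fyn in T cells, differed by 0.27 (0.10 to 0.43; 0.0736). Sh2d1b1 and Sh2d1b2, which encode the SAP-like adaptors EAT-2 and ERT in mice and are close copies whose probe sets could in part read each other, differed by 0.07 (from -0.16 to 0.30) and 0.05 (from -0.17 to 0.28). Among the phosphatases that can bind the same motif, Ptpn11 (SHP-2) differed by -0.11 (from -0.26 to 0.05) and Inpp5d (SHIP) by -0.02 (from -0.17 to 0.13), beside -0.07 for Ptpn6.

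**Figure D4:**
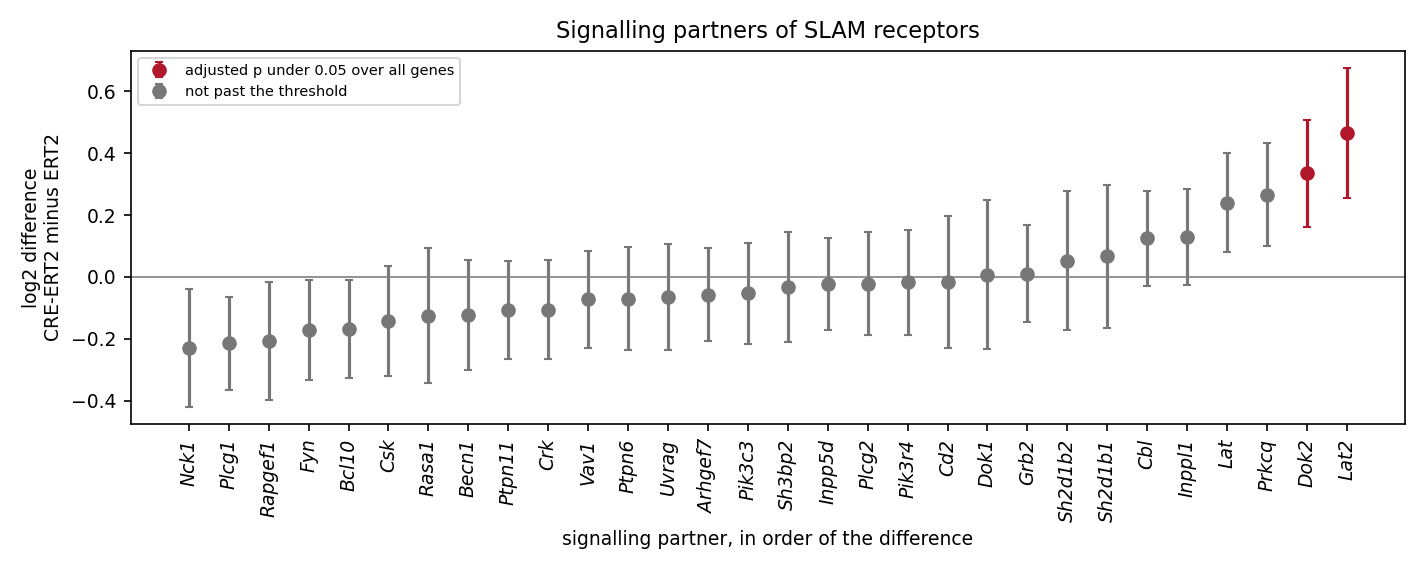
Log2 difference, CRE-ERT2 minus ERT2, with 95% confidence intervals (y axis), for 30 signalling partners in order of the difference (x axis). Lat2 (0.47) and Dok2 (0.33), in red, passed over all genes, and the other 28, in grey, lie between -0.23 and 0.27.

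Genes that mark the cells in which Slamf7 and Cd244a are best known were read beside them. Of 9 natural killer cell markers 0 passed in limma (1 at an unadjusted p under 0.05), and their summed level, taken off the log scale, was 919 to 966 on the CRE-ERT2 arrays, against 928 to 979 on the ERT2 arrays. Of 10 T cell markers 0 passed (0 unadjusted), with summed levels of 2048 to 2164 in CRE-ERT2, against 2076 to 2229 in ERT2. Of 10 macrophage and monocyte markers 0 passed (1 unadjusted), with 2107 to 2126 in CRE-ERT2, against 2120 to 2210 in ERT2. Of 7 stem and progenitor cell markers 0 passed (2 unadjusted), with 998 to 1074 in CRE-ERT2, against 972 to 1134 in ERT2. Over all genes 4.58% passed, and 3260 of 19938 had an unadjusted limma p under 0.05. In these 4 lists the ranges of the groups overlapped. Several markers of each list had a mean over the 6 arrays below 7.37, such as Klrb1c (5.57) and Cd3g (6.08). A change at such low levels may not show, and each sum weighs the brightest genes of its list most. These counts and sums therefore do not show that the content of such cells was the same.

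Plasma cells are known for high SLAMF7, and of 7 plasma cell markers 1 rose and 1 fell, against 2.3% and 2.28% of all genes. Sdc1, the syndecan that marks plasma cells, averaged 9.27 ± 0.21 in CRE-ERT2 and 9.70 ± 0.0089 in ERT2 (SD, n = 3 each; log2 difference -0.44, limma adjusted p = 0.0209). Mzb1, a secretory-pathway gene of B-lineage cells, averaged 11.69 ± 0.08 in CRE-ERT2 and 11.32 ± 0.15 in ERT2 (SD, n = 3 each; 0.37, adjusted p = 0.0314). Both calls were lost when ERT2 replicate 1 was removed (0.0959 for Sdc1, 0.115 for Mzb1) and when CRE-ERT2 replicate 3 was removed (0.0884 and 0.154), and that of Mzb1 also when CRE-ERT2 replicate 1 was removed (0.111). With every probe set tested, neither passed (0.180 for Sdc1, 0.193 for Mzb1). The call of Mzb1 was also lost with the replicate number as a block. The summed level of the plasma cell list was 16970 to 17901 in CRE-ERT2, against 16387 to 17130 in ERT2. This sum weighs bright genes most, such as Xbp1 (mean 13.26 over the 6 arrays, beside 6.74 for Prdm1), and is not a measure of plasma cells.

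Of the markers of the labelled cell type 12 were tested, and Igll1 and Cd79b were the brightest of them. Igll1, a surrogate light chain gene of pre-B cells, averaged 14.46 ± 0.0049 in CRE-ERT2 and 14.40 ± 0.03 in ERT2 (SD, n = 3 each). Cd79b, a signalling chain of the B cell receptor, averaged 13.89 ± 0.04 in CRE-ERT2 and 13.80 ± 0.01 in ERT2. Of the 12, Dntt (0.48, limma adjusted p = 0.00369) rose, Il7r (-0.43, 0.00349) and Rag2 (-0.53, 0.00426) fell, and 9 did not pass. That is 3 of 12, against 4.58% of all genes. When every probe set was tested, Dntt (0.0640) and Rag2 (0.0911) did not pass. Of 7 dendritic cell markers, Ccr7 (0.95, 6.37e-06) and Flt3 (0.53, 0.00115) rose, genes that lymphoid cells also express, and the other 5 did not pass, against 2.3% of all genes that were higher. The dendritic list summed to 2412 to 2458 in CRE-ERT2, against 1655 to 1858 in ERT2, and Ccr7 and Flt3 were its brightest genes. The part of these marker changes in the lower Slamf7 and Cd244a was not tested.

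The genes whose values over the 6 arrays lay nearest to those of Slamf7, after each gene was centred on its mean, were Bmpr1a, Crhbp and Mt1. Bmpr1a, a bone morphogenetic protein receptor gene, had a root mean square difference from Slamf7 of 0.0796 log2 units and a change of -1.44. Crhbp, whose product binds a hypothalamic stress hormone, had 0.101 and -1.30, and the metallothionein gene Mt1 had 0.140 and -1.37. Cd244a, with its smaller change, came at rank 12 of 19937 genes (0.226). This likeness is a description over 6 arrays in 2 groups, and the measure weighs the size of the difference between the groups.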

How the data were processed

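The authors deposited log2 values for 35556 probe sets on 6 arrays. The submitters' processing notes name RMA and Partek 6.5 but say nothing of their use, and the log2 scale was read from the values. The build and annotation behind the array are not given in the sources used here. The platform annotation named 1 gene for 21789 probe sets, several for 1621 and none for 12146. Where a gene had several probe sets (999 genes) the brightest was kept, which left 19938 genes. Entrez identifiers of 21698 probe sets were found in the RefSeq gene table of GRCm38.p6, used for names and gene order only.

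CRE-ERT2 was compared with ERT2 with limma 3.58.1 under R 4.3.3 (lmFit, eBayes, two-sided, group as the only term), over all genes at a Benjamini-Hochberg adjusted p under 0.05. The fit was also run on simulated independent normal values with the spreads that the fit itself had estimated. Such values cannot show how it behaves where arrays share effects. The exact test used SciPy 1.17.1. Members and lists were chosen with earlier results of these data known. Named genes were the members, Ptpn6, up to 6 passing partners and neighbours by size of change, the 2 brightest and up to 3 passing markers of each list, and the 3 genes most like Slamf7. Others named in the text (Itln1, Alyref2, Arhgap30, Cd2, Fyn, Prkcq, Sh2d1b1, Sh2d1b2, Ptpn11, Inpp5d, Klrb1c, Cd3g and Prdm1) were chosen for their place, role, interval or low level after values were seen. Some names on the lists were not analysed here.

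No array was a duplicate: 8 to 57 probe sets of a pair of arrays held equal values. Scan dates were not used, so batches were not tested.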

Additional observations from a re-analysis of the deposited data

How the results depend on the processing

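The count of 2 SLAM family members past the threshold, Slamf7 and Cd244a, held in all 14 alternatives run, with differences of -1.53 to -1.33 and -1.11 to -0.95, and no other member passed in any of them. Leaving out the dimmest genes removed Slamf1, Slamf8 and Sh2d1a from the test. Among members that did not pass, differences close to 0 changed sign under at least 1 alternative for Cd48, Ly9, Cd84, Slamf8 and Sh2d1a, and the values ran from -0.06 to 0.04 for Cd84 and from -0.02 to 0.08 for Sh2d1a. Among 30 signalling partners, 2 passed as reported, 4 after a further quantile normalization, 5 with a trended, robust variance (4 higher, 1 lower), 0 with every probe set tested, and 0 to 2 when an array was left out (0 without replicate 1 of either group or replicate 3 of CRE-ERT2, and 1 without replicate 2 of either group). With the dimmest genes left out, 3 of the 28 partners still tested passed. Among 34 genes beside the family, 2 passed as reported, 1 (Fcrl6) after a further quantile normalization and with every probe set tested, and 1 to 2 when an array was left out. The difference of Ptpn6 stayed between -0.12 and -0.02 and did not pass in any alternative. Over all genes 914 passed, against 1544 with a trended, robust variance, 254 of the probe sets kept when every probe set was tested, and 453 to 979 when an array was left out. With the replicate number as a block, 2 members, 1 partner (Lat2), 1 neighbour (Fcrl6) and 589 genes in all passed. Same-numbered arrays did not deviate together (correlations of -0.11, -0.37 and -0.07), 0 of 3 pairs correlated best with their own number, and the numbers were not taken as pairs. Where a call was lost, the cause was not tested. Testing every probe set adds tests but also changed the standard errors, and leaving out an array removes samples but also changed the differences. Signal over background is unknown.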

Other observations

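Apart from Ccr7 and Flt3, the brightest markers of other cell types did not pass in limma in either direction. Cd5, a surface protein of T cells and some B cells, averaged 9.35 ± 0.09 in CRE-ERT2 and 9.42 ± 0.05 in ERT2 (SD, n = 3 each). Prf1, the pore-forming protein of killer cells, averaged 7.66 ± 0.06 in CRE-ERT2 and 7.60 ± 0.08 in ERT2. Lyz2, the lysozyme of macrophages and granulocytes, averaged 8.83 ± 0.09 in CRE-ERT2 and 9.05 ± 0.13 in ERT2, a log2 difference of -0.22 that did not pass (limma adjusted p = 0.200). Kit, the stem cell factor receptor, averaged 7.52 ± 0.08 in CRE-ERT2 and 7.78 ± 0.09 in ERT2, a difference of -0.26 that did not pass (0.0830) but did with the dimmest genes left out (0.0447). The other markers that were brightest within their lists also had small log2 differences and did not pass. These were Bcl11b of T cells (-0.02), Tbx21 of natural killer cells (-0.13), Cd68 of macrophages (0.03) and Gata2 of progenitor cells (0.06). The plasma cell factors Xbp1 (0.01) and Irf4 (0.05) likewise did not pass. Some of these markers were bright only beside the rest of their list. Means over the 6 arrays were 7.54 for Tbx21, 7.63 for Prf1, 7.65 for Kit and 7.85 for Gata2. Such levels lie not far above 7.37, the limit of the dimmest genes, and a change there may not show.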
